A study of Mus musculus with 13 samples.

Results

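The ADAM, ADAMTS, MMP and TIMP genes encode the main metalloproteases of the cell surface and extracellular matrix and their tissue inhibitors. They were followed here in endothelial cells of the mouse liver. Members were the gene symbols of the count table that start with Adam, Adamts, Mmp or Timp and a digit, or with Adamtsl and a digit, apart from 4 symbols that the rule leaves out. This gave 80 of 24421 symbols: 32 ADAM, 18 ADAMTS, 5 ADAMTS-like, 21 MMP and 4 TIMP genes. The rule uses names only and no measured value, but members were chosen with earlier results of these data known.

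The study compared these cells between mice raised conventionally (CONV-R), which carry a normal microbiota, and germ-free (GF) mice, which are kept without microbes. All animals were wild type, and RNA was sequenced from 7 CONV-R libraries, numbered 1 to 7, and 6 GF libraries, numbered 8 to 13. The labels do not give the age, sex or strain of the mice or the way the cells were prepared, and they do not say that libraries come from separate animals. The p-values below therefore measure the spread between these libraries, which may in part be technical. Levels are CPM, the count of a gene scaled to a common library size, after TMM scaling of the libraries. A difference was called where the Benjamini-Hochberg adjusted p of edgeR's quasi-likelihood test was under 0.05 over all 13915 genes with enough counts to test.

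ADAM proteases are membrane-anchored and release the outer parts of growth factors, cytokines and adhesion molecules from the cell surface, a process called shedding. ADAMTS proteases are secreted and cleave proteoglycans, procollagens and other matrix proteins, while the ADAMTS-like proteins share their ancillary domains but have no protease domain. MMPs degrade collagens, basement membrane and other matrix components, and TIMPs block MMPs and some members of the other groups. In the liver sinusoid, whose endothelium rests on a sparse matrix without a regular basement membrane, these enzymes and inhibitors are known for their part in matrix turnover during injury and repair.

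Total counts per library were 7590320 to 32869515 in CONV-R and 23407168 to 35478115 in GF. The endothelial label held in all libraries: the summed level of 16 endothelial markers was 22933 to 38966 CPM of the library total in the CONV-R libraries and 39198 to 41368 in GF, and 10 of the 16 were higher in GF. Markers of hepatocytes and of neutrophils and monocytes moved the opposite way. Summed hepatocyte markers were at 1184 to 7413 CPM in CONV-R against 715 to 1083 in GF (12 of 16 lower in GF). Summed neutrophil and monocyte markers were at 240 to 2974 CPM against 100.6 to 216 (11 of 11 lower in GF). Neither of these marker sums overlapped between the groups. Kupffer cell and macrophage markers were at 2508 to 7884 CPM in the CONV-R libraries and 2367 to 3862 in GF, with 0 of 12 called. In such bulk samples fewer cells of a type and less RNA per cell cannot be told apart. CONV-R 1 stood apart by its low endothelial sum (22933 CPM) and its high B and plasma cell sum (1470 CPM). That second sum was 54.1 to 73.7 CPM in the rest of CONV-R and 20.3 to 35.9 CPM in GF, again without overlap. With all libraries in the fit, 7 of 8 B and plasma cell markers were called as lower in GF. Dendritic cell markers were lower for 5 of 9, and cholangiocyte markers higher for 6 of 10 and lower for 1. The dendritic cell and cholangiocyte sums overlapped between the groups. GF 11 stood apart by its stellate cell and fibroblast markers (771 CPM, against 145 to 311 in every other library). A number within the library names is 10 for CONV-R 1 to 4, 9 for CONV-R 5 to 7 and 6 for every GF library. Its meaning is not stated, and it cannot be told apart from the group.

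Adam19 and Adamts1, lower in GF, and Mmp28, higher in GF, were among the 5 members called at a threshold of 0.01. Mmp13 represents the MMP gene cluster on chromosome 9. The promoter sequences of these 4 members are shown here. Each is read 5′ to 3′ on the gene's strand from the RefSeq promoter table of build GRCm38.p6 and covers the 250 bases before the annotated start, or 219 for Mmp28, where bases that overlap an annotated exon were removed. The intervals are chr11:46055734-46055983 (plus strand) for Adam19, chr16:85803114-85803363 (minus strand) for Adamts1, chr9:7272264-7272513 (plus strand) for Mmp13 and chr11:83463072-83463290 (minus strand) for Mmp28. Capitals mark letters that match the AP-1 motif TGANTCA, the GC box GGGCGG or the TATA box TATAAA on either strand.
Adam19: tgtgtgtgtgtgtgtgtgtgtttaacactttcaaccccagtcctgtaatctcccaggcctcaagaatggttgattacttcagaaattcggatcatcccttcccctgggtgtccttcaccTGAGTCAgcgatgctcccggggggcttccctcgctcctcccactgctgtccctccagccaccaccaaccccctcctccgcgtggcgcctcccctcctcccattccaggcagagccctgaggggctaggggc
Adamts1: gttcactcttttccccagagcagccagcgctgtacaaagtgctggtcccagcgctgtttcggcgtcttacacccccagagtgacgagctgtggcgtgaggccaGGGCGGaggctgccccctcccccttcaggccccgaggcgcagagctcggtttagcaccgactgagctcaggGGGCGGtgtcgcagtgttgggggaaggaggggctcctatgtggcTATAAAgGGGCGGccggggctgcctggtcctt
Mmp13: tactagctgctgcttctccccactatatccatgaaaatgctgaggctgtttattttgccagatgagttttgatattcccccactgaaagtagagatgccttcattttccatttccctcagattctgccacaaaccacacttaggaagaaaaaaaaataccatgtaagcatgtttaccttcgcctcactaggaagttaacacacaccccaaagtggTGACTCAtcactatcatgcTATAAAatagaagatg
Mmp28: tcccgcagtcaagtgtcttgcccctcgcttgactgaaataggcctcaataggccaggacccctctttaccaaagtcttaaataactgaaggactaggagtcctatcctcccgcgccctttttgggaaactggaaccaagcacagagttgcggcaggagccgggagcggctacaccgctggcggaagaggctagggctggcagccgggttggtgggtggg
The Adam19 window, the one of its 3 in the table that lies nearest the annotated gene start, holds 1 AP-1 match, TGAGTCA, and the Mmp13 window holds 1, TGACTCA, followed by a TATA match. The Adamts1 window holds 3 GC boxes and 1 TATA match, and the Mmp28 stretch shown holds 0 matches, although its full window counts among those with a GC box given next.

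Of the 55 family windows in the RefSeq table, which belong to 50 genes, 12 held TGANTCA (21.8%), against 6.75% of all 32851 windows of the same length. The 12 belonged to Adam19, Adam20, Adam25, Adam29, Mmp1a, Mmp1b, Mmp3, Mmp7, Mmp10, Mmp12, Mmp13 and Mmp20. These include 8 of the 9 members in the chromosome 9 cluster of MMP genes. Only 4 of these genes (Adam19, Mmp7, Mmp12 and Mmp13) had enough counts to test here. GGGCGG was in 24 of the 55 family windows, against 10756 of all 32851 (32.7%). TATAAA was in 13 of the 55, against 4063 of all 32851 (12.4%). The cyclic AMP response element TGACGTCA and the glucocorticoid response element were in 0 family windows, against 1.55% and 0.0365% of all windows. A match is a description of these letters and not evidence of binding.

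Of the 80 members, 44 had enough counts to test and 36 did not. Among the 36, 11 had 0 counts in all 13 libraries and 25 had some, the most abundant of them 127 counts over all 13 libraries and at most 21 in a single library. Of 21 ADAM genes known from the reproductive tract or without a described role, 2 were tested and 9 were at 0 counts. All 4 TIMP genes and all 7 widely expressed ADAM sheddases were tested.

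Levels among members, compared as CPM per kilobase of exon, spread widely. Timp3, an inhibitor that binds the matrix and blocks ADAM17 and ADAMTS proteases as well as MMPs, was the highest, at 140 ± 42.7 CPM per kilobase in CONV-R (SD, n = 7) and 205 ± 19.8 in GF (SD, n = 6), and made up 37.3% of the summed level of the tested members. Adam10, the sheddase that releases Notch receptors and cadherins, followed at 54.5 ± 7.16 and 66.3 ± 4.36 CPM per kilobase and made up 13.1%. Mmp14, the membrane-type MMP that activates proMMP2, came next at 40.9 ± 10.9 and 43.8 ± 4.64, beside Adam9 at 37.0 ± 4.05 and 40.2 ± 3.14, so these neighbours did not differ beyond their spread. Adam15, Adamts1, Adam17, Adamts10, Adamts7, Adam19 and Timp2 filled the next places with means over all 13 libraries from 23.0 down to 10.6 CPM per kilobase, and Adam8 was next at 4.90. Of the 44 tested members, 21 had a mean under 5 CPM in both groups and 10 had a mean of at least 100 CPM in 1 group or both.

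**Figure D1:**
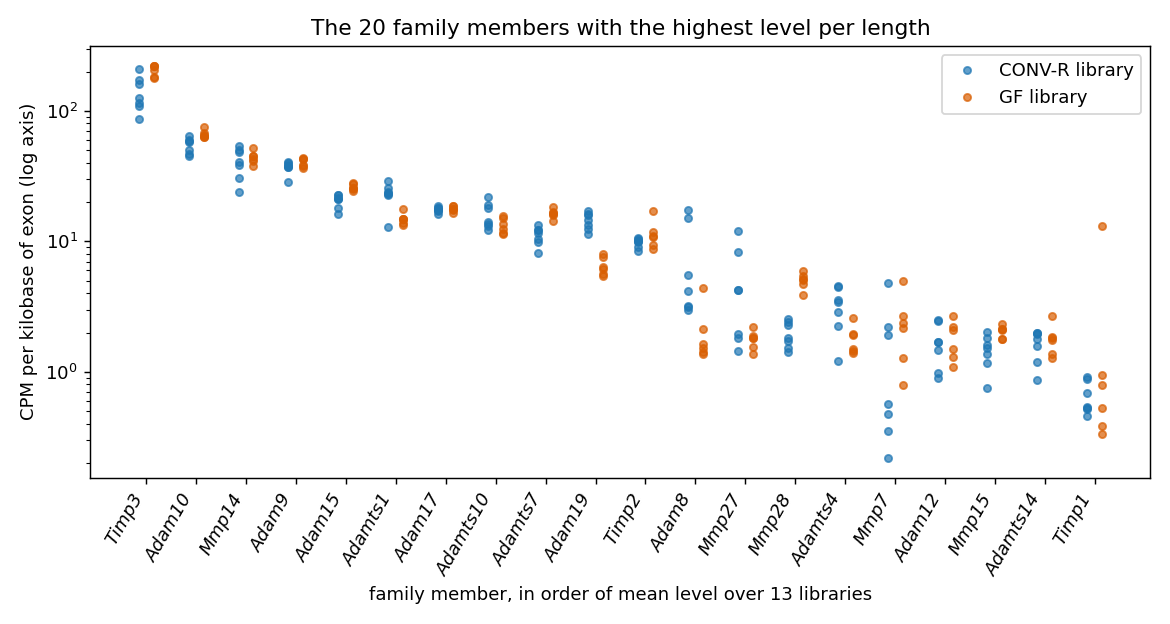
Level of the 20 members with the highest mean, as CPM per kilobase of exon on a log axis, with 1 point per library (CONV-R left, GF right of each position). Timp3 lies highest in both groups, Adam10, Mmp14 and Adam9 follow, and the GF points of Adam19 lie below its CONV-R points.

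Between GF and CONV-R, 14 of the 44 tested members were called: 5 were higher in GF (Mmp28, Adamts7, Timp3, Adam15 and Adam10) and 9 were lower (Adam19, Adamts1, Adamts4, Adam4, Adam8, Adam11, Mmp13, Mmp25 and Mmp27). Of all 13915 genes tested, 24.1% were called, 11.4% as higher and 12.7% as lower. The members' shares were 31.8%, 11.4% and 20.5%, so the share higher equalled the background and the share lower was above it by an amount that was not tested. The median log2 fold change was 0.11 over the tested members and -0.01 over all tested genes. Scaling by library totals instead of TMM moved that all-gene median to -0.11, the share of higher genes among all calls from 47.5% to 25.9%, and the members' counts to 3 higher and 9 lower. Leaving out 1 library at a time left 3 to 7 members higher and 4 to 9 lower. The higher count was 3 without CONV-R 5, without CONV-R 7 or without any 1 GF library, and the lower count was 4 or 5 without CONV-R 6, without CONV-R 7 or without any 1 of GF 9 to GF 13. Adam19 and Mmp28 were past the threshold under all 26 alternatives that gave them a value, with log2 fold changes from -1.24 to -0.97 and from 0.94 to 1.69.

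**Figure D2:**
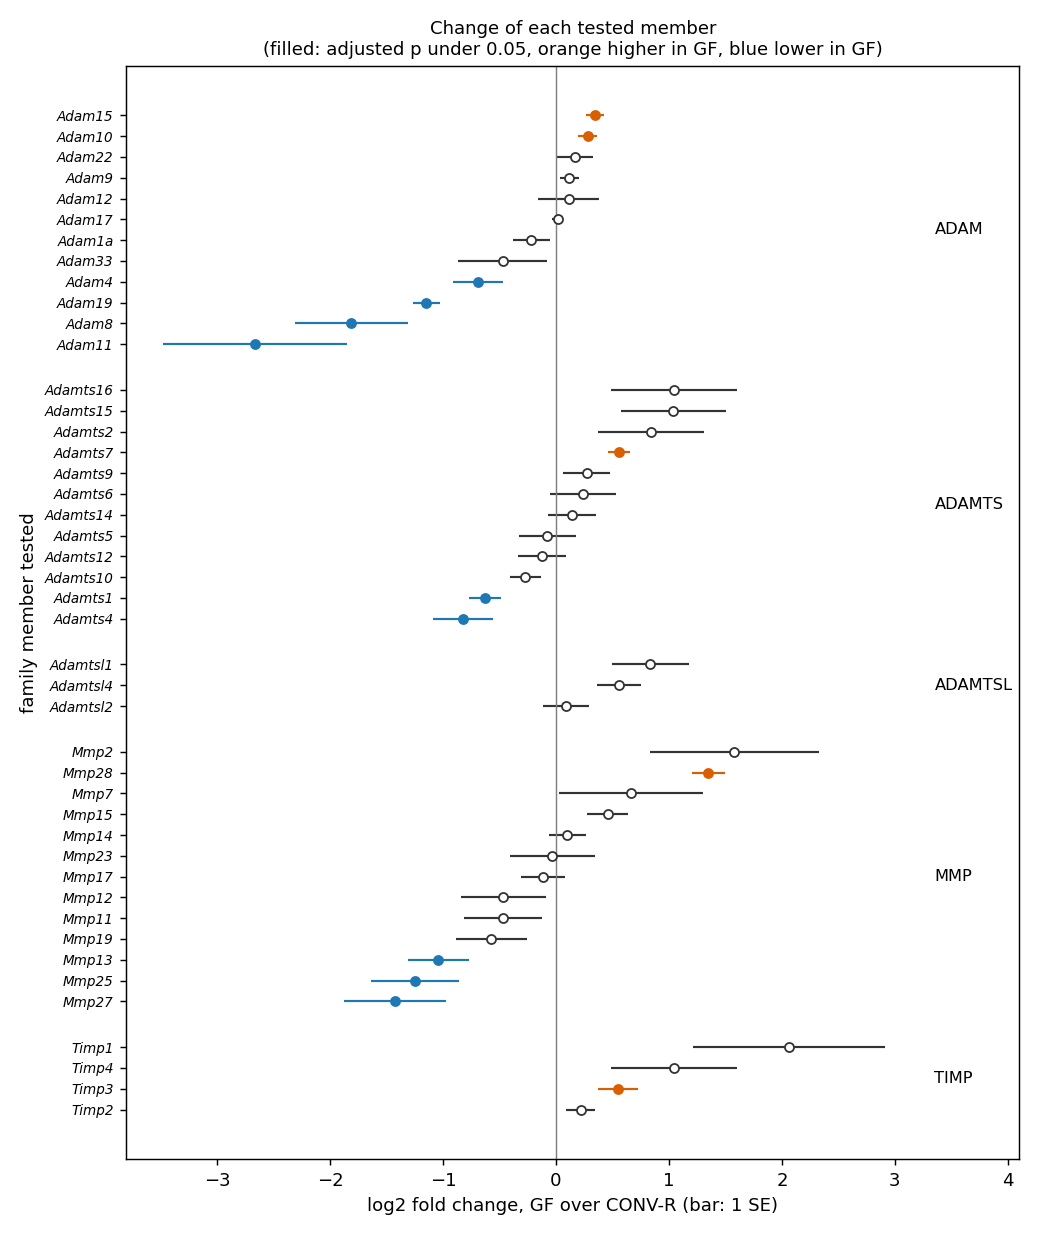
The log2 fold change (GF over CONV-R) of each of the 44 tested members with 1 SE as a bar, grouped by family, with filled points for those at an adjusted p under 0.05. The 9 filled points left of 0 run from Adam11 at -2.67 to Adamts1 at -0.63, and the 5 right of 0 from Adam10 at 0.28 to Mmp28 at 1.35.

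By family, 2 of 12 tested ADAM genes were higher and 4 lower, 1 of 12 ADAMTS genes higher and 2 lower, 1 of 13 MMP genes higher and 3 lower, and 1 of 4 TIMP genes higher and 0 lower. None of the 3 tested ADAMTS-like genes was called, with adjusted p from 0.0502 (Adamtsl4) to 0.779 in edgeR's quasi-likelihood test. Adamtsl4 was called as higher by DESeq2, by limma voom and with the stricter filter on low counts. It was also called without CONV-R 1, without CONV-R 6 and without CONV-R 6 and 7 together. In 3 members all GF values exceeded all CONV-R values (6.82% of those tested, against 5.94% of all genes), and in 1 member all GF values were below all CONV-R values (2.27%, against 4.32%). These were Mmp28, Adamts7 and Adam15 in the first case and Adam19 in the second.

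Among the widely expressed ADAM sheddases, Adam19, which can release neuregulin and other membrane-bound ligands, fell in GF. It lies on chromosome 11 (GRCm38, 46055992 to 46147343, plus strand). Its lowest, median and highest level were 81.3, 103 and 121 CPM in CONV-R and 38.6, 44.3 and 56.9 CPM in GF. The groups did not overlap: the highest GF library, GF 10, was below the lowest CONV-R library, CONV-R 5. The fall was 2.21-fold, a log2 fold change of -1.15 ± 0.12 (SE) with an edgeR adjusted p of 5.03e-05. CONV-R libraries with the code number 10 were at 88.0 to 116.03 CPM and those with 9 at 81.3 to 121 CPM, so both sets lay above GF. Of its exon length, 10.1% overlaps genes on the opposite strand, and the strand setting of the counting is not given in the sources used here.

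Adam15, a sheddase with a disintegrin domain found at endothelial junctions, rose. Its values were 98.8, 130 and 140 CPM in CONV-R and 150, 158 and 171 CPM in GF (lowest, median and highest), without overlap. The difference was 1.27-fold, a log2 fold change of 0.35 ± 0.08 with an adjusted p of 0.00886 in edgeR's quasi-likelihood test. With the hepatocyte marker level in the model the log2 fold change was 0.12 (adjusted p = 0.575), and with the neutrophil and monocyte level it was 0.39 (adjusted p = 0.111). Since neither marker level overlaps between the groups, such a fit shares the difference between marker and group. The exons of Adam15 overlap an opposite-strand gene over 20.6% of their length.

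Adam10 was also called as higher, at 223, 283 and 313 CPM in CONV-R and 310.0, 318 and 366 CPM in GF. The ranges overlapped only at their edge, with 4 of 6 GF libraries above every CONV-R library. Its difference was a log2 fold change of 0.28 ± 0.09 (edgeR adjusted p = 0.0319). This call was lost when CONV-R 1, 5, 6 or 7 or any 1 GF library was left out, with log2 fold changes of 0.23 to 0.29 and adjusted p from 0.0524 to 0.0772, and under scaling by library totals (0.19, adjusted p = 0.0817). It was also lost against the CONV-R libraries of code number 10 (0.22, adjusted p = 0.147) and with each marker level as a covariate: 0.0046 (adjusted p = 0.988) with hepatocyte, 0.22 (adjusted p = 0.414) with neutrophil and monocyte, and 0.25 (adjusted p = 0.0503) with stellate cell and fibroblast markers.

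Adam17, the sheddase of TNF and of ligands of the EGF receptor, was the most even of the abundant members. Its lowest, median and highest values were 115.6, 125 and 134 CPM in CONV-R and 117, 127 and 133 CPM in GF. The coefficient of variation was 4.53% over the CONV-R libraries and 4.51% over the GF libraries, and the log2 fold change of 0.02 ± 0.05 missed the threshold (edgeR adjusted p = 0.827) and turned negative (-0.08) under scaling by library totals. Adam9 was at 117, 155 and 167 CPM in CONV-R and 150, 166 and 180 CPM in GF and missed the threshold as well (0.12 ± 0.08, edgeR adjusted p = 0.290). CONV-R 1 was the low library of Adam9, since the other 6 were at 152 to 167 CPM. The other sheddases, Adam12 and Adam33, had adjusted p of 0.790 and 0.388 in the same edgeR fit.

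The remaining called ADAM genes were lower in GF and less abundant. Adam8, a protease of neutrophils, monocytes and macrophages, was at 13.8, 19.4 and 80.0 CPM in CONV-R and 6.32, 7.28 and 20.3 CPM in GF. The highest CONV-R values were those of CONV-R 6 (69.5) and CONV-R 7 (80.0), and the only GF library inside the CONV-R range was GF 11. Adam8 had a log2 fold change of -1.81 ± 0.50 (edgeR adjusted p = 0.0199). Neutrophil and monocyte markers were highest in the same 2 libraries, at 1853 and 2974 CPM. Without these libraries the log2 fold change of Adam8 was -0.89 (adjusted p = 0.0716), and with the marker level in the model -0.12 (adjusted p = 0.916). That marker level does not overlap between the groups, even without these 2 libraries. Neither fit can therefore separate its part from the group. Against the CONV-R libraries of code number 10 alone the value was -0.84 (adjusted p = 0.124), and with the hepatocyte level in the model -0.92 (adjusted p = 0.601).

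Adam11, a catalytically inactive ADAM known from neurons, had few counts and 1 library far above the others. CONV-R 1 was at 19.1 CPM, while the other CONV-R libraries were at 0.711 to 2.65 and the GF libraries at 0.385 to 0.895 CPM. The log2 fold change was -2.67 ± 0.81 (edgeR adjusted p = 0.0305) with all libraries and -1.09 (adjusted p = 0.0430) without CONV-R 1. The call was lost without any 1 GF library (adjusted p from 0.0502 to 0.0640). The direction turned to 0.59 (adjusted p = 0.764) with the hepatocyte marker level as a covariate, and the call was lost with the stellate cell and fibroblast level (-1.80, adjusted p = 0.126) and with limma voom (-0.70, adjusted p = 0.171). Hepatocyte markers were highest of all libraries in CONV-R 1, at 7413 CPM. B and plasma cell markers stood at 1470 CPM there, and their part in the result was not tested. Adam4, described from the testis, was at 0.880 to 2.26 CPM in the CONV-R libraries and 0.832 to 1.26 CPM in GF, or 13 to 66 counts per library. Its log2 fold change of -0.69 ± 0.22 (edgeR adjusted p = 0.0371) lost the call without any 1 of CONV-R 4, 6 or 7 or GF 9 to GF 13 (adjusted p from 0.0530 to 0.0788), and was -0.53 (adjusted p = 0.455) and -0.43 (adjusted p = 0.490) with the hepatocyte and the neutrophil and monocyte level in the model.

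**Figure D3:**
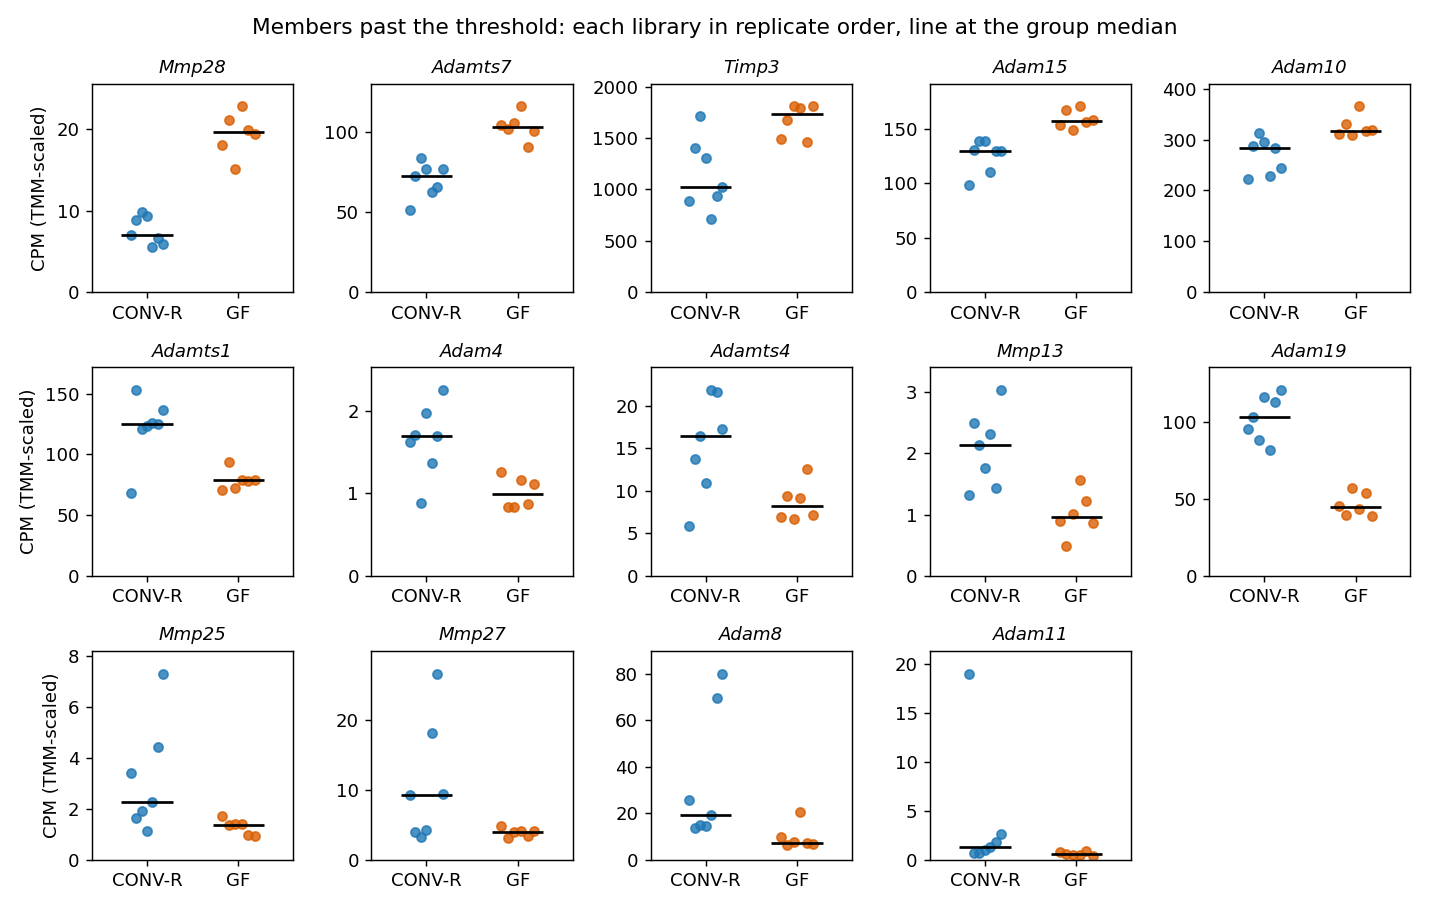
CPM of the 14 members past the threshold, 1 panel each with its own axis from 0, with 1 point per library and a line at the group median. Adam19, Mmp28, Adamts7 and Adam15 show no overlap between the groups, while Adam11 has 1 CONV-R library at 19.1 CPM far above the rest.

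Among the ADAMTS genes, Adamts7, which cleaves cartilage oligomeric matrix protein and other matrix proteins, rose in GF (chromosome 9, GRCm38 90163069 to 90208071, plus strand). It was at 51.2, 72.3 and 83.6 CPM in CONV-R and 90.1, 103 and 115.97 CPM in GF, without overlap. This 1.47-fold difference was a log2 fold change of 0.56 ± 0.10 (edgeR adjusted p = 0.00225). Among the 26 alternatives the call was lost only with the hepatocyte marker level as a covariate (0.33, adjusted p = 0.218). Its closest relative Adamts12 did not pass the threshold, at a log2 fold change of -0.12 ± 0.21 (edgeR adjusted p = 0.708).

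Proteoglycan-cleaving members fell in 2 cases. Adamts1, which cleaves versican and aggrecan and is known to restrain vessel growth, was at 68.2, 125 and 153 CPM in CONV-R and 70.6, 78.6 and 93.7 CPM in GF (chromosome 16, GRCm38 85793827 to 85803113, minus strand). CONV-R 1 alone was below the GF libraries, since the other 6 CONV-R libraries were at 121 to 153 CPM and every GF library was below that range. The log2 fold change was -0.63 ± 0.14 (edgeR adjusted p = 0.00824) and -0.74 was the most negative value on leaving out 1 library. The call was lost against the CONV-R libraries of code number 10 (-0.56, adjusted p = 0.0616), which include CONV-R 1, and with the neutrophil and monocyte marker level as a covariate (-0.38, adjusted p = 0.368).

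Adamts4, the other called proteoglycanase, was at 5.83, 16.4 and 21.9 CPM in CONV-R and 6.71, 8.17 and 12.5 CPM in GF. The ranges overlapped through CONV-R 1 (5.83) and CONV-R 4 (10.9), and all 6 GF libraries were below the CONV-R median. The log2 fold change of -0.82 ± 0.26 (edgeR adjusted p = 0.0381) lost the call without any 1 of CONV-R 3, 5, 6 or 7 or any 1 GF library other than GF 12 (adjusted p from 0.0520 to 0.0792), and it was -0.01 with the neutrophil and monocyte level, -0.998 (adjusted p = 0.248) with the hepatocyte level and -0.44 (adjusted p = 0.287) against the code number 10 libraries. The other 3 tested proteoglycanases, Adamts5, Adamts9 and Adamts15, were not called, with log2 fold changes of -0.07 ± 0.26, 0.27 ± 0.21 and 1.04 ± 0.47. Adamts9 was at 7.604, 17.0 and 27.6 CPM in CONV-R, a range that held all GF values (18.3, 21.0 and 23.3 CPM). Adamts10, a protease of microfibrils, was at 100.3, 117 and 181 CPM in CONV-R and 93.8, 108 and 128 CPM in GF, and its log2 fold change of -0.27 ± 0.14 missed the threshold (edgeR adjusted p = 0.165).

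Among the MMPs, Mmp28, also called epilysin, rose by the largest factor of the called higher members. It lies on chromosome 11 (GRCm38, 83440768 to 83463071, minus strand). It was at 5.49, 7.05 and 9.78 CPM in CONV-R and 15.1, 19.7 and 22.8 CPM in GF. The ranges did not overlap, and the difference was 2.54-fold, a log2 fold change of 1.35 ± 0.15 with an edgeR adjusted p of 7.56e-05. The CONV-R libraries of code number 10 (7.05 to 9.78 CPM) and 9 (5.49 to 6.66 CPM) were both below GF. Its exons overlap an opposite-strand gene over 12.0% of their length.

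The 3 MMPs that fell were of low abundance. Mmp13, a collagenase, was at 1.32, 2.13 and 3.03 CPM in CONV-R and 0.486, 0.952 and 1.57 CPM in GF, or 11 to 76 counts per library. In 5 of 6 GF libraries it was below every CONV-R library, the exception being GF 11, and its log2 fold change was -1.04 ± 0.27 (edgeR adjusted p = 0.0149). The call was kept without any 1 library and lost against the code number 10 libraries alone (-0.94, adjusted p = 0.0595), with the hepatocyte level (-0.87, adjusted p = 0.276) and with the neutrophil and monocyte level (-0.61, adjusted p = 0.422). Mmp13 is 1 of the 9 members followed here in the chromosome 9 cluster of MMP genes (GRCm38, 7272514 to 7699585). Of these 9, 4 were tested and the other 5 had at most 13 counts over all libraries.

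Mmp27, a neighbour of Mmp13 in that cluster, was at 3.18, 9.28 and 26.6 CPM in CONV-R and 3.05, 4.03 and 4.84 CPM in GF. The high libraries were CONV-R 5 (18.2) and CONV-R 6 (26.6), while CONV-R 2 to 4 were at 3.18 to 4.30 CPM, inside the GF range. Its log2 fold change of -1.42 ± 0.45 (edgeR adjusted p = 0.0368) lost the call without CONV-R 1, 5, 6 or 7 or any 1 GF library (-1.50 to -1.04, adjusted p from 0.05003 to 0.0763). In all, 18 of 26 alternatives lost it, among them the code number 10 libraries alone (-0.40, adjusted p = 0.350), limma voom (-0.34, adjusted p = 0.486) and the covariates for neutrophil and monocyte (-0.10, adjusted p = 0.943), hepatocyte (-0.87, adjusted p = 0.623) and stellate cell and fibroblast markers (-1.23, adjusted p = 0.0983). Kupffer cell and macrophage markers were highest in CONV-R 5 (7782 CPM) and CONV-R 6 (7884 CPM), and their part in the result was not tested. The other 2 tested members of the cluster, Mmp7 (matrilysin) and Mmp12 (macrophage elastase), were not called, at 0.66 ± 0.64 and -0.46 ± 0.38.

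Mmp25, a membrane-type MMP of leukocytes, was at 1.14, 2.25 and 7.31 CPM in CONV-R and 0.941, 1.38 and 1.72 CPM in GF. CONV-R 7 (7.31) and CONV-R 6 (4.44) were the high libraries, as they were for neutrophil and monocyte markers. The log2 fold change of -1.25 ± 0.39 (edgeR adjusted p = 0.0343) was -0.67 (adjusted p = 0.113) without both, and -0.08 (adjusted p = 0.935) with that marker level in the model. It was -0.07 (adjusted p = 0.971) with the hepatocyte level and -0.62 (adjusted p = 0.189) against the code number 10 libraries. It also lost the call without either alone or without any 1 of GF 9 to GF 13 (-1.28 to -0.88, adjusted p from 0.0562 to 0.0727).

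Mmp14 was at 143, 243 and 323 CPM in CONV-R and 224, 260 and 307 CPM in GF, and these ranges overlapped almost entirely. Its log2 fold change of 0.10 ± 0.16 missed the threshold (edgeR adjusted p = 0.690) and was -0.01 without CONV-R 1. Mmp15, also membrane-type, was at 4.06 to 11.0 CPM in the CONV-R libraries and 9.55 to 12.5 CPM in GF and did not pass (0.46 ± 0.18, edgeR adjusted p = 0.0805). Mmp2, the gelatinase that MMP14 activates, was between 0.549 and 1.02 CPM in 12 libraries. Its CONV-R values were 0.624, 0.912 and 1.02 CPM and its GF values 0.549, 0.708 and 12.3 CPM. The high library was GF 11. With it the log2 fold change was 1.58 ± 0.75 (edgeR adjusted p = 0.135), and without it the value was -0.33.

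Of the 4 inhibitors, Timp3 was called as higher in GF, at 711, 1027 and 1712 CPM in CONV-R and 1459, 1730.2 and 1812 CPM in GF. The groups overlapped through CONV-R 3, the highest of its group, and 3 of 6 GF libraries were above every CONV-R library. Timp3 had a log2 fold change of 0.55 ± 0.18 (edgeR adjusted p = 0.0355). The call was lost without CONV-R 1, 5, 6 or 7 or any 1 GF library (0.45 to 0.58, adjusted p from 0.0507 to 0.0760), and under scaling by library totals (0.46, adjusted p = 0.0571). It was lost as well against the code number 10 libraries (0.33, adjusted p = 0.190) and with the level of hepatocyte (0.15, adjusted p = 0.795), neutrophil and monocyte (0.27, adjusted p = 0.616) or stellate cell and fibroblast markers (0.51, adjusted p = 0.0512) in the model. The CONV-R libraries of code number 9 were at 711 to 1027 CPM and those of number 10 at 887 to 1712 CPM. Exons of an opposite-strand gene cover 21.3% of its exon length.

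The other 3 inhibitors were not called. Timp2, which takes part in the activation of proMMP2 at the cell surface, was at 32.7, 39.0 and 41.5 CPM in CONV-R and 33.8, 42.3 and 66.0 CPM in GF (0.22 ± 0.13, edgeR adjusted p = 0.219). Timp1, an inducible inhibitor made by stellate cells and fibroblasts among others, was at 0.406, 0.478 and 0.812 CPM in CONV-R and 0.297, 0.589 and 11.7 CPM in GF. As with Mmp2, GF 11 was the high library: the log2 fold change was 2.06 ± 0.85 with it (edgeR adjusted p = 0.0900) and -0.08 without it. Timp4 varied from 0.562 to 5.69 CPM in CONV-R and from 0.770 to 9.23 CPM in GF (1.04 ± 0.56, edgeR adjusted p = 0.180).

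GF 11 was at least 2-fold above every other GF library for 6 of the 44 tested members: Timp1, Mmp2, Mmp12, Adamts2, Adamts15 and Adam8. Adamts2, a procollagen N-propeptidase, was at 4.76 CPM in GF 11 and 0.832 to 1.16 CPM in the other GF libraries. Mmp12 was at 4.58 CPM against 0.862 to 1.37, and Adamts15 at 2.24 CPM against 0.442 to 0.862. The summed level of 17 stellate cell and fibroblast markers was 771 CPM in GF 11 and 171 to 241 CPM in the other GF libraries, and its part in these values was not tested. CONV-R 1 was the lowest of the 7 CONV-R libraries for 18 of the 44 members. The shares of all genes with these patterns in GF 11 and CONV-R 1 were not counted. The counts of 6 and 18 therefore cannot be read as results about the members.

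**Figure D4:**
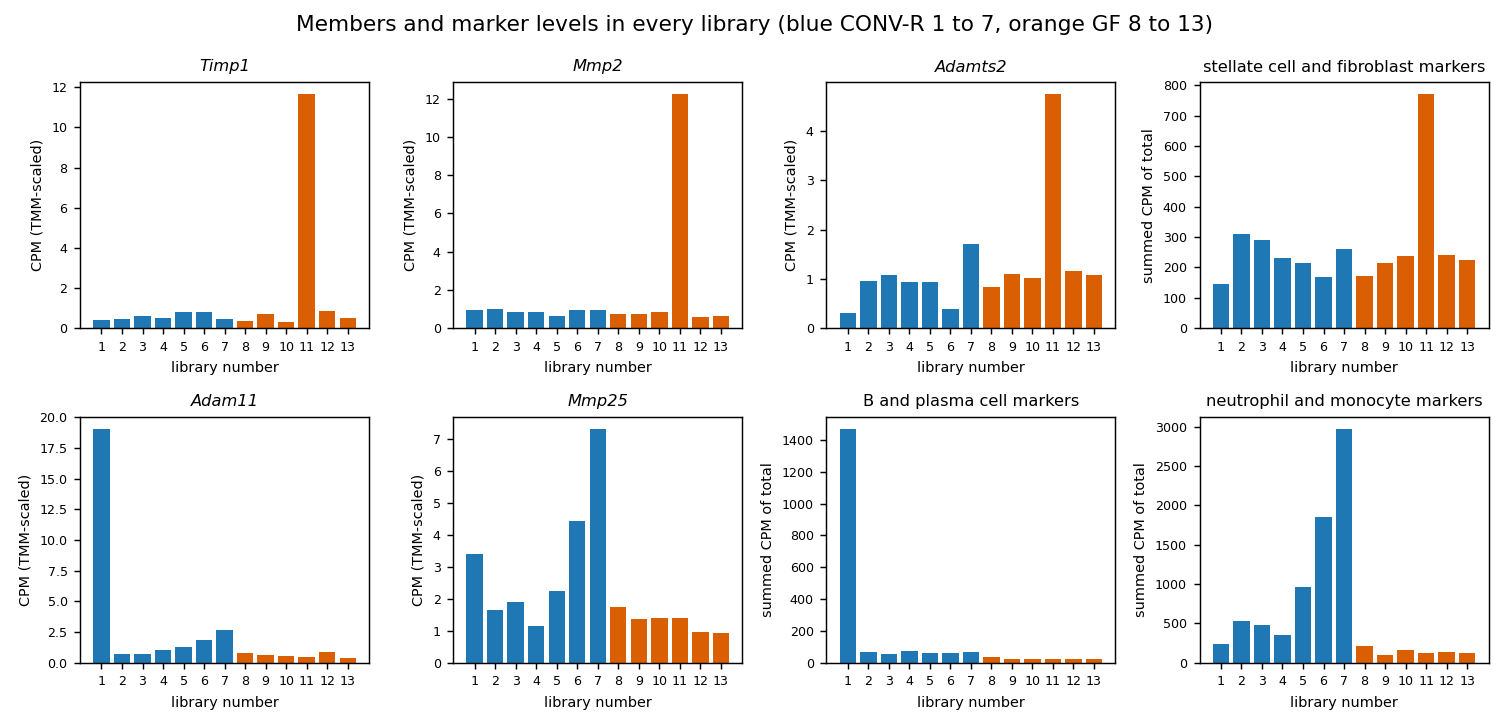
CPM of Timp1, Mmp2, Adamts2, Adam11 and Mmp25 and the summed level of 3 marker lists in each library (bars, each axis from 0, blue CONV-R 1 to 7, orange GF 8 to 13). Timp1, Mmp2 and Adamts2 peak in GF 11, as do stellate cell and fibroblast markers; Adam11 peaks in CONV-R 1 with B and plasma cell markers, and Mmp25 in CONV-R 7 with neutrophil and monocyte markers.

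Genes that activate, traffic or inhibit these proteases were followed as a list of 21, of which 18 were tested: 6 were higher and 2 lower in GF, with a median log2 fold change of 0.03. The shares over all genes, to be read beside this and the next lists, were 11.4% higher and 12.7% lower. A2m, a plasma protein that traps proteases of all classes, rose from 0.562 to 1.66 CPM in CONV-R to 4.93 to 7.23 CPM in GF (2.49 ± 0.22, edgeR adjusted p = 2.31e-05). Of the 5 tested tetraspanins that partner ADAM10, 2 rose, Tspan5 (0.81 ± 0.12) and Tspan14 (0.47 ± 0.10), neither with overlap between the groups, while Tspan15 (-0.05 ± 0.13), Tspan17 (-0.06 ± 0.11) and Tspan33 (-0.21 ± 0.34) were not called. Both calls were lost with the hepatocyte level in the model (0.48, adjusted p = 0.1103, and 0.15, adjusted p = 0.572) and with the neutrophil and monocyte level (0.60, adjusted p = 0.106, and 0.24, adjusted p = 0.406). The call of Tspan14 was also lost against the CONV-R libraries of code number 10. Furin and Pcsk7, proprotein convertases that remove protease propeptides, rose by small amounts (0.13 ± 0.04 and 0.21 ± 0.07), as did Bsg, an inducer of MMPs (0.28 ± 0.09). Furin lost the call under 24 of 26 alternatives, among them limma voom, library totals and each covariate. It was also lost without any 1 library other than CONV-R 3 (edgeR adjusted p from 0.0545 to 0.106).

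Rhbdf2, the pseudoprotease iRhom2 that carries ADAM17 to the cell surface, fell, at 40.9 to 61.4 CPM in the CONV-R libraries and 36.1 to 41.7 CPM in GF (-0.36 ± 0.10, edgeR adjusted p = 0.0185). This call was lost against the code number 10 libraries (-0.29, adjusted p = 0.0901) and with the hepatocyte (-0.16, adjusted p = 0.614) or the neutrophil and monocyte level (-0.26, adjusted p = 0.354) in the model. Pcsk6, another convertase, was lower too (-2.07 ± 0.51, adjusted p = 0.0118), with a CONV-R range of 0.896 to 8.31 CPM against 0.585 to 1.104 CPM in GF. With the hepatocyte marker level in the model its direction turned (0.29, adjusted p = 0.705), and with the neutrophil and monocyte level the call was lost (-2.14, adjusted p = 0.1003). Reck, a membrane-bound inhibitor of MMPs, was not called (-0.07 ± 0.25). The count of 6 higher was 3 without any 1 library other than CONV-R 2, 3 or 4 or GF 11, and the count of 2 lower was 4 without CONV-R 1.

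Of 42 membrane proteins known to be shed, 41 were tested, and 13 were higher and 6 lower in GF (all genes 11.4% and 12.7%), with a median log2 fold change of 0.23. Among those lower were Csf1, the growth factor of macrophages (-1.47 ± 0.11), Tnf (-1.86 ± 0.24) and Hbegf, an EGF receptor ligand (-0.96 ± 0.12). Each of these 3 was without overlap between the groups, and all 3 stayed past the threshold under all 26 alternatives. The higher members included Thbd, the endothelial thrombin receptor (1.67 ± 0.16), and Lyve1 (0.93 ± 0.13), Notch4 (0.85 ± 0.15) and Ephb4 (0.61 ± 0.11), which mark or shape endothelium. Lyve1, Tek and Tie1, all called as higher, and Cdh5 and Kdr, which were not called, are also among the 16 endothelial markers. The summed level of those markers was higher in GF, and the part of that level in these differences was not tested.

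Of 29 matrix substrates, 24 were tested, with 6 higher, 2 lower (all genes 11.4% and 12.7%) and a median log2 fold change of 0.29. Ltbp4 (0.56 ± 0.11), Nid1 (0.47 ± 0.11), Eln (0.89 ± 0.24) and Fbn1 (0.62 ± 0.18), proteins of microfibrils, basement membrane and elastic fibres, were higher. Col18a1, the collagen from which endostatin is released, was lower (-1.68 ± 0.39), as was Thbs2 (-0.72 ± 0.20). With the hepatocyte level in the model the direction of Col18a1 turned (0.12, adjusted p = 0.783), and with the neutrophil and monocyte level its call was lost (-1.56, adjusted p = 0.125). Under either of these covariates 0 matrix substrates were called as higher. Col1a1 and Col1a2 were also called as higher, but GF 11 held 154 and 146 CPM of them while the CONV-R libraries held at most 2.72 and 3.66. Both genes, with Col3a1 and Dcn of this list, are also among the stellate cell and fibroblast markers. Without GF 11 the list counted 3 higher and 4 lower.

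**Figure D5:**
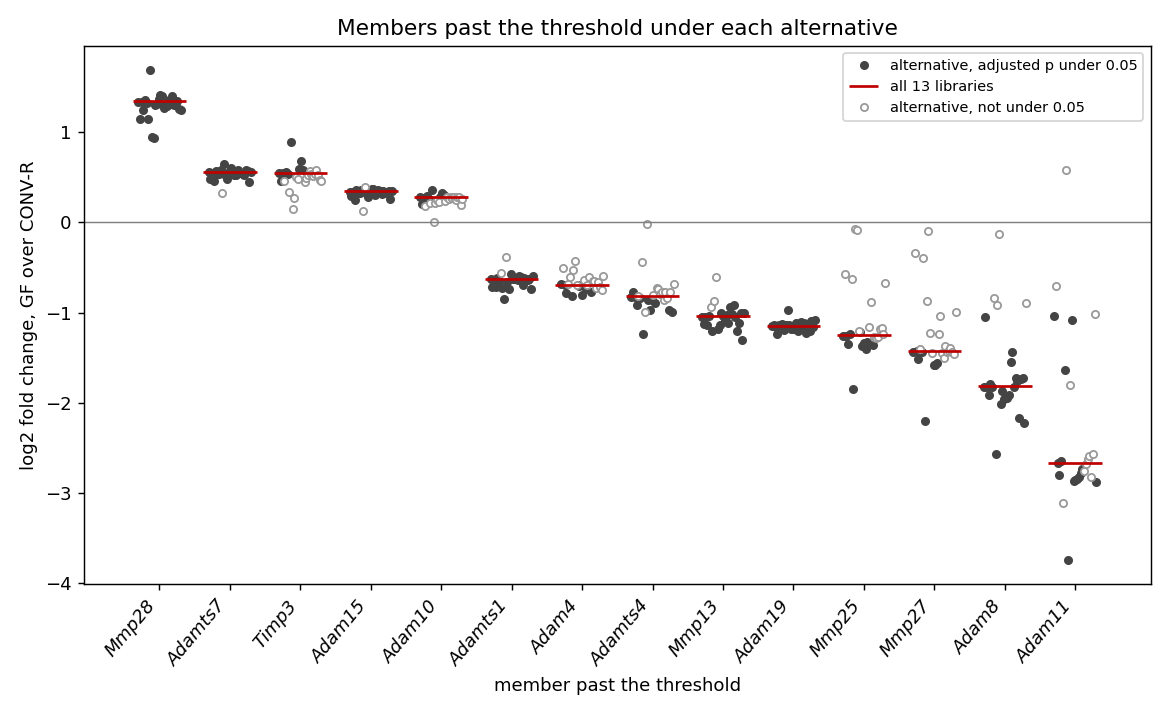
Log2 fold change (GF over CONV-R) of the 14 called members under each alternative setting, 1 point each, filled where the adjusted p was under 0.05, with a line at the value from all 13 libraries. Adam19 and Mmp28 have only filled points, while Timp3, Adam10, Adam4, Adam11, Adamts4, Mmp25 and Mmp27 have open points near their line.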

How the data were processed

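RNA of liver endothelial cells was sequenced in 13 libraries (7 CONV-R, 6 GF), grouped by the labels. The authors deposited raw counts per gene symbol. Per the labels' protocols, libraries were stranded and poly(A)-selected and read on an Illumina NovaSeq. The submitters' processing notes name the aligner STAR 2.7.5a, the counter featureCounts 2.0.1, FastQC 0.11.9, DESeq2 1.42.1 and build mm10. The annotation, strand setting and handling of multi-mapping reads were not given in the sources used here, so overlapping and antisense genes may share reads.

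Counts of all genes were fitted with edgeR 4.0.16 (TMM, filterByExpr with a minimum count of 10 and a minimum total of 15, robust glmQLFit, glmQLFTest) in R 4.3.3 and adjusted over all 13915 tested genes, with a threshold of 0.05. The standard error is the absolute log2 fold change over the square root of F. The code was tested on simulated data. Coordinates, exon lengths and overlaps came from GENCODE vM21 (GRCm38), which held all 80 members, and promoters from RefSeq (GRCm38.p6). Named were all called members, those at a mean of at least 20 CPM in either group and a fixed set of 9 (Adam10, Adam17, Adam19, Adamts1, Timp1 to Timp3, Mmp2, Mmp14). In each related list they were up to 4 members with the smallest p and A2m, Reck, Rhbdf2 and Furin. Others named were singled out after their values were seen. Members and lists were chosen with earlier results of these data known.

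Alternatives were DESeq2 1.42.0, limma 3.58.1 voom with quality weights, DESeq2 size factors, library totals, other filters, a threshold of 0.01, CONV-R libraries of 1 code number, marker levels as covariates, and each library left out; leaving out CONV-R 1 with GF 11, or CONV-R 6 with CONV-R 7, was chosen after seeing the data. CONV-R 6, the shallowest library at 7590320 counts, is the least precise for low genes.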

Additional observations from a re-analysis of the deposited data

Results flagged for a closer look

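Single libraries far from the rest of their group were looked for in 44 groups of values, and 7 were found. The rule passes about 1 in 20 groups of independent, normally distributed values. These groups share their libraries and hold unlogged CPM, and some genes were named because they were called. That rate therefore does not apply to the count of 7. A library counted as far where its gap to the nearest other library, as a share of the group's range, was above the Dixon value of 0.568 for 7 libraries or 0.625 for 6.

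CONV-R 1 was far from its group for 3 members. It was the highest library for Adam11 (19.1 CPM, others 0.711 to 2.65) and the lowest for Adamts1 (68.2 CPM, others 121 to 153) and Adam9 (117 CPM, others 152 to 167). GF 11 was far above its group for another 3: Timp1 (11.7 CPM, others 0.297 to 0.838), Mmp2 (12.3 CPM, others 0.549 to 0.832) and Adam8 (20.3 CPM, others 6.32 to 9.86). GF 9 was the highest library for Adamts1 (93.7 CPM, others 70.6 to 79.2). B and plasma cell markers were highest in CONV-R 1 and stellate cell and fibroblast markers in GF 11, and their part in these values was not tested.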

How the results depend on the processing

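No paired analysis was possible because the groups share no replicate numbers. Members higher in GF (5) numbered 3 under library totals, a threshold of 0.01, code number 10 or the stellate cell covariate, 8 with code number 9, 1 with the hepatocyte and 2 with the neutrophil covariate, and 3 to 7 without 1 library. Members lower (9) numbered 5 with limma voom or the stricter filter, 2 at 0.01, 1 with code number 10, 2 with the hepatocyte or the neutrophil covariate, 4 without CONV-R 6 and 7, and 4 to 9 without 1 library. All genes higher (1593) numbered 971 under library totals, 629 at 0.01, 978 with code number 10, 283 and 303 with the hepatocyte and neutrophil covariates, 1061 without CONV-R 1 and GF 11, and 1013 to 1765 without 1 library. All genes lower (1764) numbered 2773, 579, 1000, 233 and 441 under the first 5 of these settings.

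Protease partners higher (6) numbered 3 under library totals, at 0.01, with the stellate covariate and without either pair of libraries, 2 with code number 10, 1 with the hepatocyte or neutrophil covariate, and 3 to 7 without 1 library. Partners lower (2) numbered 4 with voom or code number 9, 1 with the stricter filter, code number 10 or the hepatocyte covariate, 0 at 0.01 or with the neutrophil covariate, and 2 to 4 without 1 library. Matrix substrates higher (6) numbered 1 at 0.01, 2 with code number 10 or without CONV-R 6 and 7, 11 with code number 9, 0 with the hepatocyte or the neutrophil covariate, and 3 to 7 without 1 library. Matrix substrates lower (2) numbered 1 at 0.01 or with the hepatocyte covariate, 0 with the neutrophil covariate and 2 to 4 without 1 library. Shed proteins higher (13) numbered 7 at 0.01, 6 with code number 10, 2 and 3 with the hepatocyte and neutrophil covariates. Shed proteins lower (6) numbered 3 at 0.01 or with the hepatocyte covariate and 11 with code number 9.

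The direction turned with the hepatocyte covariate for Adam11 (0.59), Adam17 (-0.041), Mmp14 (-0.36), Adamts9 (-0.30), Adam9 (-0.060), Pcsk6 (0.29) and Col18a1 (0.12). Adam17 was also -0.079 under library totals, -0.0025 with the stricter filter, -0.0062 with the neutrophil covariate and -0.012 without CONV-R 1 and GF 11, and ranged from -0.0051 to 0.029 without 1 library. Mmp14 was -0.017 with voom, -0.016 without CONV-R 1 and GF 11, -5.79e-05 without CONV-R 6 and 7, and -0.010 to 0.18 without 1 library. Without CONV-R 1 and GF 11 Mmp2 was -0.33 and Timp1 -0.15; without 1 library they ranged from -0.33 to 1.79 and from -0.080 to 2.30. Reck was 0.25 with code number 9 and -0.19 to 0.10 without 1 library. Under the stricter filter Timp1, Mmp2, Mmp13, Mmp25, Adam4 and Adam11 had too few counts to test. The hepatocyte and neutrophil marker levels do not overlap between the groups, so these covariates share their difference with the group. A stricter threshold calls fewer by construction, and for other changes the cause was not tested. All 44 tested members were read from 1 fit, and 21 of them under 5 CPM in both groups rest on few counts.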

Other observations

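Unadjusted p was under 0.05 for 19 of the 44 tested members. The share of all genes under this cut was not counted, so the 19 cannot be read as a result about the members. They were 5 more than passed after adjustment. Of those 5, Adamtsl4, an ADAMTS-like protein of microfibrils, was nearest to the threshold, at 1.62, 2.49 and 3.66 CPM in CONV-R and 3.004, 3.64 and 4.62 CPM in GF (0.56 ± 0.19, edgeR adjusted p = 0.0502). Adamtsl1, another ADAMTS-like gene, was at 0.187 to 0.914 CPM and 0.654 to 1.62 CPM (0.84 ± 0.34, edgeR adjusted p = 0.0881). Both were above the CONV-R median in all 6 GF libraries.

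With the 3 CONV-R libraries of code number 9 alone against GF, 18 of 44 tested members were called. They included all 14 of the 13-library comparison and Adamts6, Mmp15, Mmp19 and Timp4. Of all 14122 genes tested there, 2281 were called as higher and 2526 as lower. With the 4 libraries of code number 10 alone, 978 of all 14191 tested genes were higher and 1000 lower. The member counts thus moved the same way as those of all genes. Of the 46 members tested with code number 10, 4 were called (Adam19, Mmp28, Adamts7 and Adam15). These 4 are also the members without overlap between the groups. Adam1a, with a CONV-R range of 8.82 to 15.5 CPM and a GF range of 7.76 to 11.5 CPM, shares 63.7% of its exon length with other annotated genes, so reads assigned to it may come from them.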
